A study of Mus musculus with 7 samples.

Results

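The Hox cluster genes of the mouse were taken as every gene symbol in the deposited count tables made of Hoxa, Hoxb, Hoxc or Hoxd and a number. This rule gave 31 of the 23930 genes measured: 8 of Hoxa, 9 of Hoxb, 8 of Hoxc and 6 of Hoxd. Other Hox genes are not analysed here. Hox genes encode homeodomain transcription factors that lie side by side in 4 clusters. The number in a symbol names the paralogue group, so that genes with the same number in different clusters descend from 1 ancestral gene, and low numbers lie at the end of the cluster that is used first and most anteriorly in the embryo. In blood formation, genes of the Hoxa and Hoxb clusters are best known from stem cells and early progenitors and are turned down as cells mature. Hox proteins bind DNA with partners of the TALE homeodomain class (Pbx, Meis and Pknox), and their genes are kept on by MLL complexes (Kmt2a and its partners) and off by Polycomb complexes.

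The series compared bone marrow progenitors of pMT-10 mice, which overexpress interleukin-10, with those of control C57BL/6 (BL/6) mice. Every animal had zinc in its drinking water for 15 days, the controls too. The transgene of pMT-10 mice is driven by a metallothionein promoter, which zinc switches on. There were 7 libraries in 4 groups, all from cells purified by flow sorting: common myeloid progenitors (CMPs) of BL/6 mice (n = 2), CMPs of pMT-10 mice (n = 2), cells of pMT-10 mice without lineage markers but with Sca-1 and c-Kit (LSK) that also carried CD150 and CD48 (n = 2) and hematopoietic stem cells (HSCs) of pMT-10 mice (n = 1). The sort gates of the CMPs and HSCs, the animals' age and sex, and whether libraries came from separate or pooled animals are not given in the labels, and the p-values therefore reflect only how much these particular libraries vary, which may be technical. BL/6 mice contributed CMPs alone, so no stem cell comparison between the strains could be made. Expression was measured with a targeted assay, Ion AmpliSeq Transcriptome, which amplifies 1 short amplicon of each gene, and the value of a gene is the count of reads of that amplicon. Since amplicons differ in yield, a gene is compared between libraries and never with another gene's level.

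Total counts per library ran from 7372430 (HSC) to 13854314 (LSK replicate 2), and each library held between 10104 and 10620 genes with at least 10 counts. Where a gene was at 0, as many as 3 counts remained possible, which is 0.216 to 0.397 CPM (counts scaled to the normalised library total), for counting error only. Libraries were sequenced on 2 chips: the pMT-10 CMPs and LSK cells on 1, the BL/6 CMPs and the HSCs on the other. Strain and chip therefore cannot be told apart among the CMPs, nor cell type and chip between the HSCs and the other pMT-10 cells. Il10 was counted 0 to 2 times in every library and so did not check the strain labels. The HSC label was checked on some of 10 listed stem and progenitor markers. Procr, a receptor found on stem cells, had 291 counts in the HSC library and 0 to 19 elsewhere. Mecom had 360 against 23 to 56, and Cd48, which stem cells lack, had 49 against 221 to 686. Not every listed marker set the HSC library apart. Cd34, at 76.5 CPM in HSCs, lay between the group means of the LSK cells (25.6) and the CMPs (124 in BL/6 and 163 in pMT-10). Kit, at 158 CPM in HSCs, lay between the group means of the LSK cells (99.5) and the BL/6 CMPs (288). Ly6a, which encodes the Sca-1 antigen, had 2502 to 3458 counts in the LSK and HSC libraries, 176 and 242 in the pMT-10 CMPs, and 1 and 25 in the BL/6 CMPs. The LSK replicates differed from each other in Xist, with 2431 counts in replicate 1 and 2 counts in replicate 2. All libraries but LSK replicate 2 had 959 to 11904 counts of Xist. The replicates of the pMT-10 CMPs spread most, with a standard deviation of log2 differences between replicates of 0.823 over all genes, against 0.385 for the BL/6 CMPs and 0.474 for the LSK cells. Of 12 measured stromal and endothelial markers, Col1a1 was at 0 in every library and Cxcl12 at 0 to 5 counts, while Col1a2 had 4 to 53 counts, Pdgfrb 72 to 684 and Pecam1 895 to 1446, and the 6 T and NK cell markers summed to 0 to 0.553 CPM.

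Promoter sequence is shown for Hoxa7, Hoxa9 and Hoxb4, the members that were higher in HSCs than in BL/6 CMPs and have a single promoter in the RefSeq table of build GRCm38.p6. Each sequence runs from 250 bases before to 50 bases after the annotated start, read 5′ to 3′ on the gene's strand, with CpG dinucleotides in capitals. Hoxa7 is at chr6:52218524-52218823 on the minus strand, Hoxa9 at chr6:52227321-52227620 on the minus strand, and Hoxb4 at chr11:96318017-96318316 on the plus strand.
Hoxa7: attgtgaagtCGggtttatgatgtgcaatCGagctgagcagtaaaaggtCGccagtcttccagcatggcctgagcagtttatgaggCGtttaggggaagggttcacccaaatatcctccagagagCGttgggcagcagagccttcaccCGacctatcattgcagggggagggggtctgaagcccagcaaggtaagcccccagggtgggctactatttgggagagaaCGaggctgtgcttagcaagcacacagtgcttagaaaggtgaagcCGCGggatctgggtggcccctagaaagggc
Hoxa9: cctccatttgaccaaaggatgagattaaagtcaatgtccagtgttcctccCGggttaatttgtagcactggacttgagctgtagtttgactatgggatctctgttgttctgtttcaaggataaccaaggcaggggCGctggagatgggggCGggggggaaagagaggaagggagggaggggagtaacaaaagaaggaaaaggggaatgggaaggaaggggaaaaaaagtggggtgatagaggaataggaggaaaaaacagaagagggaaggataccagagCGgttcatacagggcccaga
Hoxb4: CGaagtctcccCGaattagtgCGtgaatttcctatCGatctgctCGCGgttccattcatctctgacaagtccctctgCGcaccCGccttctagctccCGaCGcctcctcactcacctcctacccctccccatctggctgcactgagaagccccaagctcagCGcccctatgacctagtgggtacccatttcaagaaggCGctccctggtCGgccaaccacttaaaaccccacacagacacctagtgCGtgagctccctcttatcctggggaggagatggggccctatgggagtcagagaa

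These promoters hold 9 CpG dinucleotides (Hoxa7), 4 (Hoxa9) and 14 (Hoxb4). Over all 32851 promoters of the table the median was 7, with quartiles of 3 and 20, so the Hoxb4 window was above the median and the Hoxa9 window below it. The table matched 16 of the 31 Hox genes: 5 that were detected, with 6 promoters, and 11 that were silent. The median CpG number was 13 in both sets, and their ranges overlapped (4 to 26 and 4 to 45). Searched on both strands, none of the 3 windows printed held CCAAT (in 37.41% of all promoters), TATAAA (13.62%), the E-box CACGTG (7.15%), the Meis motif TGACAG (19.18%) or the joint Pbx and Hox motif TGATNNAT (8.846%). Absence of these letters says nothing of whether a factor binds there.

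Most Hox genes were silent. With silence defined as fewer than 10 counts in every library, 22 of 31 genes were silent (70.97%), against 51.72% of all genes measured, and 10 had no count at all (32.26% against 24.89%). No gene of the Hoxc and Hoxd clusters was detected, whereas 5 of 8 Hoxa genes and 4 of 9 Hoxb genes were. Of 9233 Hox counts over the 7 libraries, 89.5% fell on Hoxa, 10.3% on Hoxb, 0.119% on Hoxd and 0.0542% on Hoxc. In bulk samples, fewer cells expressing a gene and less RNA per cell cannot be told apart.

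The Hoxc cluster (chr15:102921103-103036852, plus strand) held 8 measured genes, Hoxc4, Hoxc5, Hoxc6, Hoxc8, Hoxc9, Hoxc11, Hoxc12 and Hoxc13. Hoxc4 gave 4 counts and Hoxc8 gave 1 count over all libraries, and the other 6 gave none. The 6 measured genes of the Hoxd cluster (chr2:74668310-74765142, plus strand), Hoxd1, Hoxd4, Hoxd8, Hoxd9, Hoxd12 and Hoxd13, gave 11 counts in all. None of these exceeded 2 counts in a library, and single counts were spread over strains and cell types. Within the Hoxb cluster (chr11:96194316-96368256, plus strand), Hoxb1, Hoxb7, Hoxb8 and Hoxb13 gave no count and Hoxb9 gave 1. Within the Hoxa cluster (chromosome 6, minus strand), Hoxa3 gave 3 counts and Hoxa13 gave 2. Hoxb6, at 11 counts in the HSC library, and Hoxa10, at 13, were the detected genes nearest to the threshold. All coordinates of genes are those of GENCODE M21 on GRCm38.

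By paralogue number, the detected genes lay in groups 2 to 10: Hoxb2, Hoxb3, Hoxa4 and Hoxb4, Hoxa6 and Hoxb6, Hoxa7, Hoxa9 and Hoxa10. Group 4 and group 6 each had 2 detected genes, 1 in Hoxa and 1 in Hoxb, while Hoxc4, Hoxd4 and Hoxc6 of the same groups were silent. In group 9, Hoxa9 was detected and Hoxb9, Hoxc9 and Hoxd9 were silent, and in group 7 Hoxa7 was detected and Hoxb7 was silent. Hoxb1 and Hoxd1 were silent, and no measured gene of group 5, 8, 11, 12 or 13 was detected. The detected Hoxa genes lie on the chromosome from Hoxa4 at chr6:52189671-52191753 to Hoxa10 at chr6:52231197-52240854. The detected Hoxb genes lie from Hoxb6 at chr11:96292476-96301569 to Hoxb2 at chr11:96350525-96354012. Other Hox genes within these stretches are not analysed here, so an unbroken run of detected genes cannot be stated. At least 10 counts were reached by 9 Hox genes in the HSC library, 6 and 7 in the LSK libraries, 5 and 4 in the pMT-10 CMPs and 6 and 5 in the BL/6 CMPs.

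**Figure D1:**
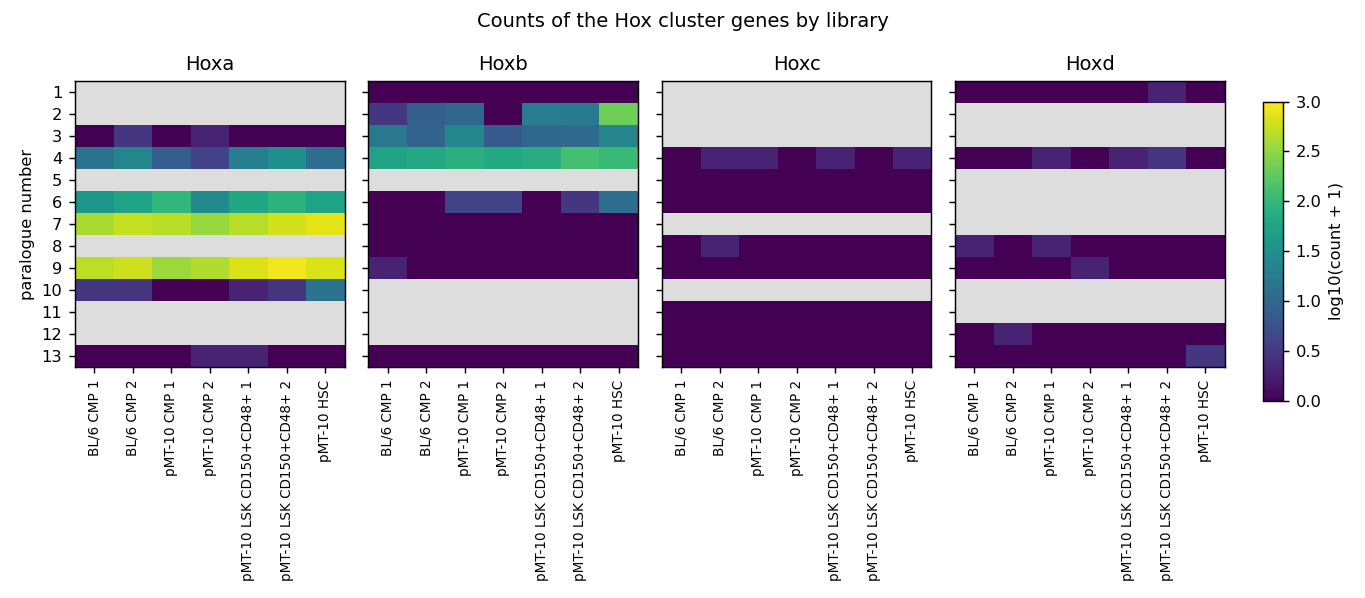
Counts of Hox genes in each of 7 libraries (columns), arranged by cluster (panels) and paralogue number (rows), coloured by log10(count + 1). Grey rows are not shown here. Rows that reach 10 counts lie in Hoxa and Hoxb, and the Hoxb2 row is brightest in the HSC column, at 218 counts.

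Hoxa7 and Hoxa9, whose products are activators kept high in primitive blood cells and in many myeloid leukaemias, took most Hox counts in every library. Their joint share was 88.0% and 87.4% in the BL/6 CMPs, 78.3% and 87.8% in the pMT-10 CMPs, 86.4% and 84.2% in the LSK cells and 76.4% in the HSCs. Because amplicons differ in yield, this is a share of counts and not of transcripts. The HSC library had the lowest share, and there Hoxb2 alone took 11.8% of Hox counts, against 0 to 1.26% in the other libraries. All Hox counts together, as CPM of the unnormalised totals, came to 94.4 and 102.0 in the BL/6 CMPs, 117.9 and 104.4 in the pMT-10 CMPs, 153.0 and 127.8 in the LSK cells and 251.1 in the HSCs. On this scale the groups did not overlap, and their order from low to high was BL/6 CMPs, pMT-10 CMPs, LSK cells and HSCs. The step between the CMP groups was only from 102.0 (BL/6 replicate 2) to 104.4 (pMT-10 replicate 2). Normalisation factors of 0.979 and 1.019 for these libraries reverse it, so on normalised totals the CMPs of both strains overlapped. For the Hoxb cluster alone the sums were 6.39 and 6.24, 12.96 and 8.98, 11.2 and 11.1, and 48.4 in the same order of groups. Here the pMT-10 CMPs and the LSK cells overlapped, and the HSC library stood above all others.

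Hoxb2, a low-numbered gene known for hindbrain patterning, was low outside the HSCs. It gave 2 and 7 counts in the BL/6 CMPs, 9 and 0 in the pMT-10 CMPs, 17 and 16 in the LSK cells and 218 in the HSCs. The HSC value lay above every other library, and the pMT-10 CMP replicates were on either side of the BL/6 values. Hoxb4, known for expanding stem cells when overexpressed, gave 4.80 and 5.17 CPM in the BL/6 CMPs, 8.83 and 7.77 in the pMT-10 CMPs, 8.53 and 9.07 in the LSK cells and 14.03 in the HSCs. Only the pMT-10 CMPs and the LSK cells overlapped. Hoxb3, its neighbour in the cluster, gave 15 and 8 counts in the BL/6 CMPs, 24 and 6 in the pMT-10 CMPs, 9 and 10 in the LSK cells and 22 in the HSCs. The BL/6 CMPs, pMT-10 CMPs and LSK cells overlapped. Hoxb6 gave 0 and 0, 3 and 3, 0 and 2, and 11 counts in the same order. Its level was under the limit that a count of 0 allows everywhere but in the pMT-10 CMPs, which sat at that limit, and in the HSCs.

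Hoxa7 was counted at 38.3 and 43.9 CPM in the BL/6 CMPs, 52.3 and 39.5 in the pMT-10 CMPs, 55.4 and 44.4 in the LSK cells and 98.6 in the HSCs. The pMT-10 CMPs overlapped both the BL/6 CMPs and the LSK cells, and the HSC library stood apart. Hoxa9 gave 45.7 and 47.3 CPM in the BL/6 CMPs, 38.8 and 50.4 in the pMT-10 CMPs, 80.7 and 62.8 in the LSK cells and 88.5 in the HSCs. The CMPs of both strains overlapped, the LSK cells lay above all CMPs, and the HSC value lay above both LSK values. Hoxa6 gave 3.42 and 4.20 CPM in the BL/6 CMPs, 10.48 and 3.01 in the pMT-10 CMPs, 7.13 and 6.12 in the LSK cells and 6.88 in the HSCs. The pMT-10 CMP replicates were the highest and the lowest of all 7, so no order of groups could be read. Hoxa4 gave 13 and 23 counts in the BL/6 CMPs, 7 and 3 in the pMT-10 CMPs, 18 and 31 in the LSK cells and 11 in the HSCs. On the CPM scale the pMT-10 CMPs were below all other libraries and the LSK cells above all others. Hoxa10, a paralogue of Hoxa9 in the next group that supports stem and progenitor cells, gave 2 and 2, 0 and 0, 1 and 2, and 13 counts in the same order of groups, at background outside the HSCs.

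**Figure D2:**
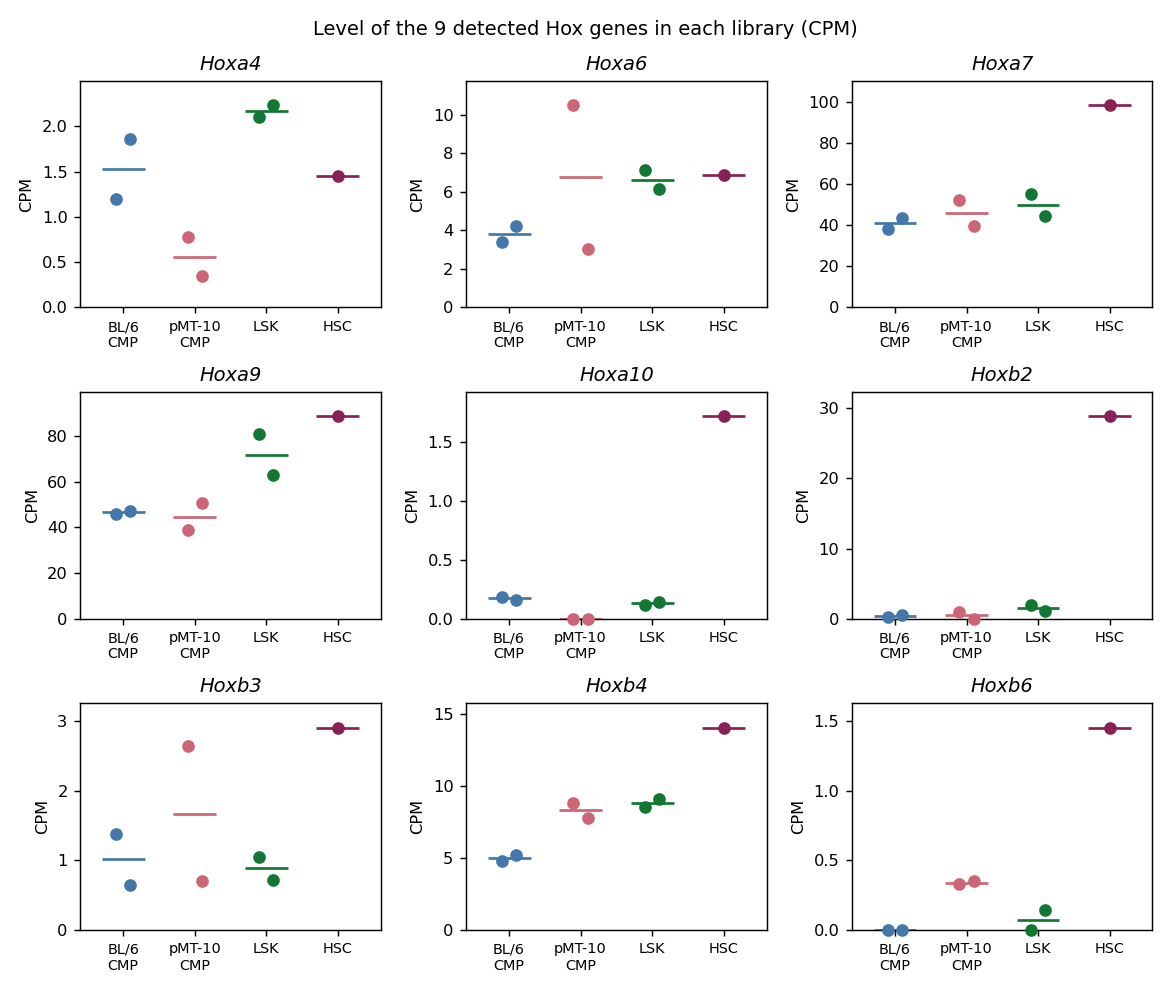
Level of each of the 9 detected Hox genes in CPM (vertical axes, from 0) in the 4 groups. Points are libraries and bars are group means. The HSC library is the highest for Hoxa7 (98.6), Hoxa9 (88.5), Hoxa10 (1.72), Hoxb2 (28.9), Hoxb3 (2.91), Hoxb4 (14.03) and Hoxb6 (1.46), and lies among the others for Hoxa4 and Hoxa6.

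The low-count filter left 9 of the 31 Hox genes for testing. Hoxa10 and Hoxb6 passed through the HSC library alone, so counts and medians over members are given for the other 7, and called genes are those with an adjusted p under 0.05 over all 11429 genes tested. The 5 comparisons share libraries, and the values of 1 comparison are not independent of another.

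The effect of the pMT-10 strain on Hox expression was addressed by pMT-10 against BL/6 CMPs. No Hox gene passed the test, against 28% of all genes tested (14.3% higher and 13.7% lower). Hoxb4 was nearest, at 8.30 ± 0.751 CPM (SD, n = 2) in pMT-10 and 4.99 ± 0.261 (n = 2) in BL/6, a log2 fold change of 0.73 ± 0.29 (SE) with an adjusted p of 0.0914. Its groups did not overlap, nor did those of Hoxa4, but the test with edgeR's quasi-likelihood method called neither gene. The share of all genes without overlap is not given here. Hoxa4 had a log2 fold change of -1.43 ± 0.68 (adjusted p = 0.147) and Hoxa6 of 0.82 ± 0.52 (adjusted p = 0.263). For Hoxa7 and Hoxa9 the log2 differences were 0.16 ± 0.22 and -0.06 ± 0.22 (adjusted p = 0.616 and 0.862), smaller than their standard errors. Hoxb2 (0.38 ± 1.07) and Hoxb3 (0.73 ± 0.77) had wide errors at their low counts. Of the 7 genes only Hoxb4 had an unadjusted p under 0.05, and DESeq2 and limma-voom called 0. Hoxb6, tested through its HSC count alone, is not counted here. Over the 7 genes the median log2 fold change was 0.38, against 0.013 over all genes, and 5 of 7 were positive. Without pMT-10 CMP replicate 2, the log2 fold change was 1.45 for Hoxa6 and 0.82 for Hoxb4. Without pMT-10 CMP replicate 1, Hoxa6 changed sign to -0.34. In the same comparison the sum of the neutrophil markers was higher in pMT-10 CMPs, at 496 and 796 CPM against 225 and 199. Of 5 tested markers 3 were called higher (Ctsg, Elane and Prtn3). Mpo (7.21 against 14.5 CPM) and Ltf (0 against 0.0923) went the other way and were not called. The part of these markers in the Hox values was not tested.

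The comparison of LSK cells with CMPs of the same strain and chip also called no Hox gene, against 11.8% of all genes tested (5.92% higher and 5.92% lower). Hoxa9 was 71.7 ± 12.6 CPM (SD, n = 2) in LSK cells and 44.6 ± 8.19 (n = 2) in CMPs, 0.68 ± 0.22 (SE) apart on the log2 scale with an adjusted p of 0.0706. Hoxa4 had the next smallest p, at 2.17 ± 0.0896 against 0.560 ± 0.3003 CPM, with a log2 fold change of 1.92 ± 0.67 (adjusted p = 0.0919). In both genes, and in Hoxb2, the 2 groups did not overlap. The share of all genes without overlap is not given here, so nothing is concluded from this. Hoxb2 had a log2 fold change of 1.57 ± 0.90 (adjusted p = 0.271) and Hoxb3 of -0.94 ± 0.79 (adjusted p = 0.453). For Hoxa7 (0.12 ± 0.22), Hoxa6 (-0.04 ± 0.51) and Hoxb4 (0.09 ± 0.29) the difference was smaller than its error. An unadjusted p under 0.05 was reached by 2 genes, Hoxa4 and Hoxa9, and DESeq2 and limma-voom called 0. With no filter on low counts Hoxa9 passed. Without pMT-10 CMP replicate 1, the log2 fold change was 2.60 for Hoxa4 and 1.13 for Hoxa6, which thereby turned sign. Hoxb2 had no fold there, since the remaining CMP library was at 0. Without replicate 2, the log2 fold change of Hoxa9 was 0.88.

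HSCs were compared with the other 3 groups through 1 library, which is assumed to vary like the rest and has no replicate check. Against LSK cells, 2 of the 7 Hox genes were higher and none lower, against 18.8% of all genes called (10.6% higher and 8.15% lower). Hoxb2 was 28.9 CPM in HSCs and 1.57 ± 0.591 (SD, n = 2) in LSK cells, which is 4.23 ± 0.76 (SE) higher on the log2 scale with an adjusted p of 0.00732. Hoxa7 was 98.6 against 49.9 ± 7.78 CPM, a log2 fold change of 0.98 ± 0.26 (adjusted p = 0.0323). Differences in Hoxa9 (0.31 ± 0.26, adjusted p = 0.437), Hoxb4 (0.67 ± 0.34, 0.193), Hoxb3 (1.73 ± 0.90, 0.203), Hoxa4 (-0.57 ± 0.77, 0.633) and Hoxa6 (0.06 ± 0.63, 0.959) did not pass. The median over the 7 genes was 0.67, against 0.027 over all genes. Without LSK replicate 1 or replicate 2 no Hox gene was called, with an adjusted p of up to 0.0992 for Hoxb2 and 0.163 for Hoxa7. Without BL/6 CMP replicate 1 or 2, which inform the spread alone, Hoxa7 was not called and Hoxb2 was.

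Against pMT-10 CMPs, 3 of the 7 Hox genes were higher in HSCs and none lower, against 25.5% of all genes called (13.8% higher and 11.7% lower). Hoxb2 had a log2 fold change of 5.80 ± 0.86 (adjusted p = 0.00248), Hoxa7 of 1.10 ± 0.26 (adjusted p = 0.017) and Hoxa9 of 0.99 ± 0.26 (adjusted p = 0.0237). Hoxa10, with 13 counts in HSCs and 0 in both CMP libraries, was at least 5.07-fold higher, taking 3 counts per CMP library as the floor; since it was tested only because of its HSC count, this is a description with no test. All 7 genes were positive, with a median of 0.99 against 0.016 over all genes. Hoxb4 did not pass, with a log2 fold change of 0.76 ± 0.34 (adjusted p = 0.133). Hoxa9 was not called without BL/6 CMP replicate 1, and neither Hoxa7 nor Hoxa9 was without BL/6 CMP replicate 2.

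Against BL/6 CMPs, which were sequenced on the same chip as the HSCs but come from another strain, 4 of the 7 Hox genes were higher and none lower, against 20.3% of all genes called (11.8% higher and 8.5% lower). Hoxb2 was 28.9 against 0.375 ± 0.269 CPM (SD, n = 2), a log2 fold change of 6.18 ± 0.86 (adjusted p = 0.00149). Hoxb4 had a log2 fold change of 1.49 ± 0.34 (adjusted p = 0.0159), Hoxa7 of 1.26 ± 0.26 (adjusted p = 0.0101) and Hoxa9 of 0.93 ± 0.26 (adjusted p = 0.0332). Hoxb6, at 0 in both BL/6 libraries, was at least 5.61-fold higher with the same floor, again a description with no test. Hoxa6 (0.85 ± 0.63), Hoxb3 (1.52 ± 0.89) and Hoxa4 (-0.08 ± 0.77) did not pass. Among the alternatives, Hoxa6 and Hoxb3 passed only in a fit of the compared groups alone. The median of the 7 genes was 1.26, against -0.010 over all genes. Without either BL/6 CMP replicate Hoxb2 was the only Hox gene called, and without either LSK replicate Hoxa9 was not called.

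Hoxb2 was called in HSCs against each of the other 3 groups, and Hoxa7 likewise. Hoxa9 was called against both kinds of CMP, and Hoxb4 against BL/6 CMPs alone; whether the HSC differences themselves differ between these comparisons was not tested. Hoxa10 and Hoxb6 rest on 13 and 11 counts in 1 library. The ratio of Hoxa10 in HSCs to LSK cells was 12.9 (95% exact counting interval 3.54 to 70.4) and to BL/6 CMPs 9.98 (3.08 to 42.0). For Hoxb6 the ratio to LSK cells was 16.3 (3.57 to 152) and to pMT-10 CMPs 4.29 (1.46 to 14.1). These intervals cover counting error only. Both genes were kept through their HSC counts alone, which favours high ratios, so the intervals are a description with no test. Markers of other cells moved with the HSC library too: the 3 erythroid markers summed to 83.8 CPM there and 224 to 406 elsewhere, Klf1 and Epor were lower in all 3 comparisons, and the endothelial and stem cell gene Emcn was higher in all 3, with 132 counts against 6 to 31. The B cell marker Cd79b was higher in all 3 as well, at 395 counts against 100 to 233, while Ebf1 was at 0 in every library. Pdgfrb was lower in all 3, at 9.53 CPM in HSCs against group means of 40.3 to 54.8, so that the stromal and endothelial list, which held Emcn and Pdgfrb moving in opposite directions, summed to 157.5 CPM in HSCs and 137.4 to 242.7 in the others. Neutrophil markers summed to 112 CPM in HSCs and to 42.2 and 48.8 in the LSK cells. The sums were 199 and 225 in the BL/6 CMPs and 496 and 796 in the pMT-10 CMPs. Prtn3 was the only one of 5 tested neutrophil markers called in HSCs against LSK cells, higher at 92.0 against 28.6 CPM. Elane (3.57 against 5.63 CPM) and Mpo (0.265 against 2.15) had lower values in HSCs, so the markers did not move as 1 set. Against the pMT-10 CMPs, 4 of 5 tested were lower in HSCs and 1, Ltf, was called higher. Ltf had 14 counts in HSCs and 0 to 5 elsewhere. It passed the filter through the HSC library alone, so its call is a description. The part of these markers in the Hox values was not tested.

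**Figure D3:**
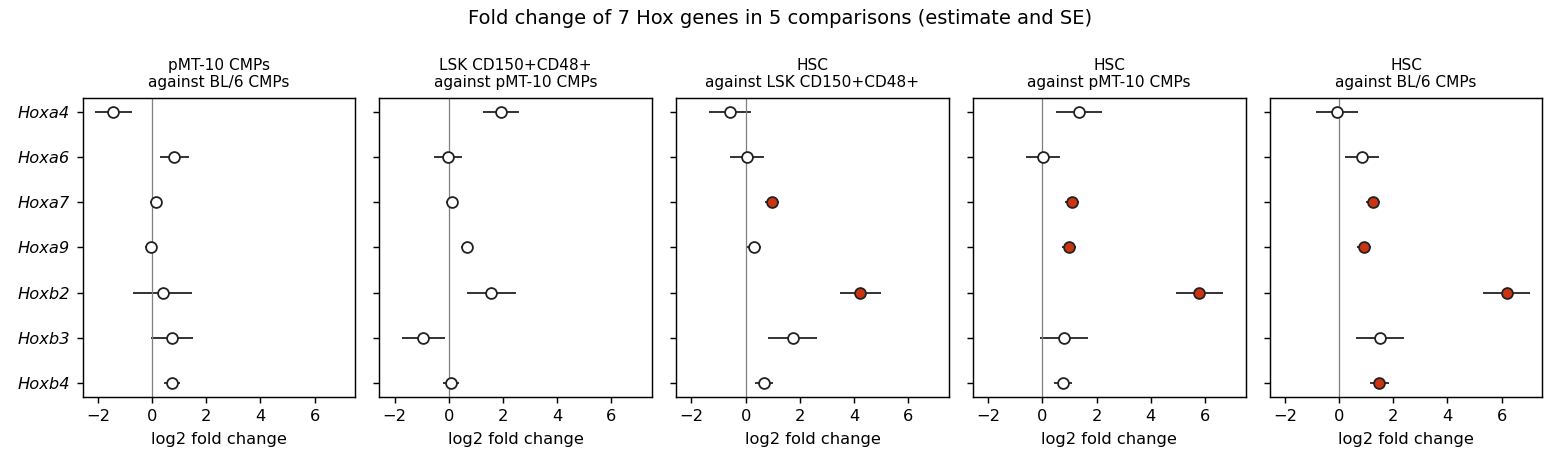
Log2 fold change (horizontal axes) of the 7 Hox genes that did not need the HSC library to pass the filter, in 5 comparisons (panels). Points are estimates, lines are SE, and filled points have an adjusted p under 0.05. No point is filled in the first 2 panels, and Hoxb2 (4.23, 5.80 and 6.18) and Hoxa7 (0.98, 1.10 and 1.26) are filled in all 3 HSC panels.

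Reads of several members cannot be assigned to 1 transcript with certainty, because genes overlap and the strand of counting is not given in the sources used here. Hoxa4 and Hoxa6 lie inside the annotated spans of Hoxa3 on the same strand and of Hoxaas3 on the other, and both of these partners were at or near 0, with 3 counts and none over all libraries. Hoxb2 and Hoxb3 share sequence with Hoxb3os, and Hoxb6 with Hoxb5os, which are not analysed here. The lncRNA Mira (chr6:52214491-52215288 in RefSeq) lies inside the span of Hoxa7 (chr6:52214491-52221854), and without amplicon positions the reads of the pair cannot be told apart. Mira gave 12.7 and 16.1 CPM in the BL/6 CMPs, 25.5 and 32.2 in the pMT-10 CMPs, 20.5 and 16.0 in the LSK cells and 42.2 in the HSCs. Unlike Hoxa7 (0.16 ± 0.22), it was called higher in pMT-10 than in BL/6 CMPs, with a log2 fold change of 1.004 ± 0.26 (adjusted p = 0.0211); the difference between these values was not tested. In HSCs it was higher than in LSK cells (1.22 ± 0.30, adjusted p = 0.0257) and BL/6 CMPs (1.55 ± 0.30, adjusted p = 0.00755). Of 16 listed cluster transcripts 7 were measured and 2 tested, Mira and Hotairm1, a lncRNA of the Hoxa cluster known from human myeloid cells that had 14 counts in HSCs and 1 to 5 elsewhere and was not called.

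Genes that flank the clusters did not follow 1 pattern. Skap2, an adaptor gene beyond the low-numbered end of the Hoxa cluster, gave 99.0 and 99.7 CPM in the BL/6 CMPs, 68.4 and 62.2 in the pMT-10 CMPs, 60.6 and 76.4 in the LSK cells and 242 in the HSCs. It was higher in HSCs than in LSK cells (1.82 ± 0.22, adjusted p = 0.00156), pMT-10 CMPs (1.89 ± 0.22, adjusted p = 0.000793) and BL/6 CMPs (1.29 ± 0.22, adjusted p = 0.00409), and lower in pMT-10 than in BL/6 CMPs (-0.60 ± 0.19, adjusted p = 0.0407). Snx10, further out on the same side, fell instead in HSCs against LSK cells (-1.19 ± 0.25, adjusted p = 0.0136) and was higher in LSK cells than in pMT-10 CMPs (0.77 ± 0.19, adjusted p = 0.0354). Of the 13 flanking genes measured 7 were tested. In pMT-10 against BL/6 CMPs, Snx11 beside Hoxb and Mtx2 beside Hoxd were higher and Skap2 was lower. In the HSC comparisons Skap2 was the only one called higher, and Snx10 the only one called lower. Evx1 and Evx2, homeobox genes at the posterior ends of Hoxa and Hoxd, gave no count in any library.

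Among the TALE partners, Pbx3 gave 5.45 and 6.06 CPM in the BL/6 CMPs, 11.6 and 8.92 in the pMT-10 CMPs, 16.5 and 13.2 in the LSK cells and 14.4 in the HSCs. The BL/6 CMPs were below all others, and the HSC value lay between the LSK values. Pbx3 was higher in HSCs than in BL/6 CMPs (1.32 ± 0.35, adjusted p = 0.0275), and its difference between pMT-10 and BL/6 CMPs (0.83 ± 0.30, adjusted p = 0.0638) did not pass. Pbx4 gave 7.85 and 5.01 CPM in the BL/6 CMPs, 17.8 and 10.8 in the pMT-10 CMPs, 15.2 and 12.4 in the LSK cells and 9.79 in the HSCs. It was higher in pMT-10 than in BL/6 CMPs (1.15 ± 0.35, adjusted p = 0.0387), where the groups did not overlap, and was not called in the other 4 comparisons. Pbx2 and Pknox1 were called in none of the 5 comparisons, and Meis2, Meis3 and Pknox2 reached at most 6 counts. Meis1 is not analysed here.

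Of 24 listed upstream regulators 23 were measured and 20 tested. In pMT-10 against BL/6 CMPs 3 were higher (Dot1l, Aff4 and Cbx7) and 3 lower (Mllt1, Mllt3 and Suz12), a share close to the 28% of all genes called, so the count says nothing particular to the regulators. Dot1l is the histone H3 methyltransferase that MLL fusion proteins recruit, Mllt1 and Mllt3 are its elongation partners, Suz12 is a Polycomb subunit and Cbx7 a Polycomb reader. Mllt3 (AF9), known for supporting human stem cells in culture, gave 35.0 and 56.1 CPM in the BL/6 CMPs, 11.3 and 3.71 in the pMT-10 CMPs, 63.4 and 67.9 in the LSK cells and 7.01 in the HSCs. It was low in pMT-10 CMPs and HSCs and high in the other groups. The log2 fold change was -2.60 ± 0.44 in pMT-10 against BL/6 CMPs (adjusted p = 0.00421), 3.13 ± 0.45 in LSK cells against pMT-10 CMPs (adjusted p = 0.00404), -3.22 ± 0.60 in HSCs against LSK cells (adjusted p = 0.00875) and -2.70 ± 0.59 in HSCs against BL/6 CMPs (adjusted p = 0.0129). Mllt1 fell by 1.14 ± 0.17 on the log2 scale in pMT-10 against BL/6 CMPs (adjusted p = 0.00300) and was higher by 0.86 ± 0.17 in LSK cells against pMT-10 CMPs (adjusted p = 0.0168).

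In HSCs against LSK cells 2 of the 20 regulators were lower (Aff1 and Mllt3), beside 18.8% of all genes called. Against pMT-10 CMPs 1 was higher (Mllt1) and 3 lower (Aff4, Ash2l and Dot1l), beside 25.5%, and against BL/6 CMPs 1 was higher (Cbx7) and 2 lower (Aff1 and Mllt3), beside 20.3%. These counts say nothing particular to the regulators either. Kmt2a, the MLL methyltransferase itself, was not called in any of the 5 comparisons, nor was Ezh2, the catalytic subunit of Polycomb complex PRC2. The Cdx genes, activators of Hox clusters in the embryo and in fish and mouse blood formation, reached at most 7 counts (Cdx4, BL/6 CMP replicate 1).

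**Figure D4:**
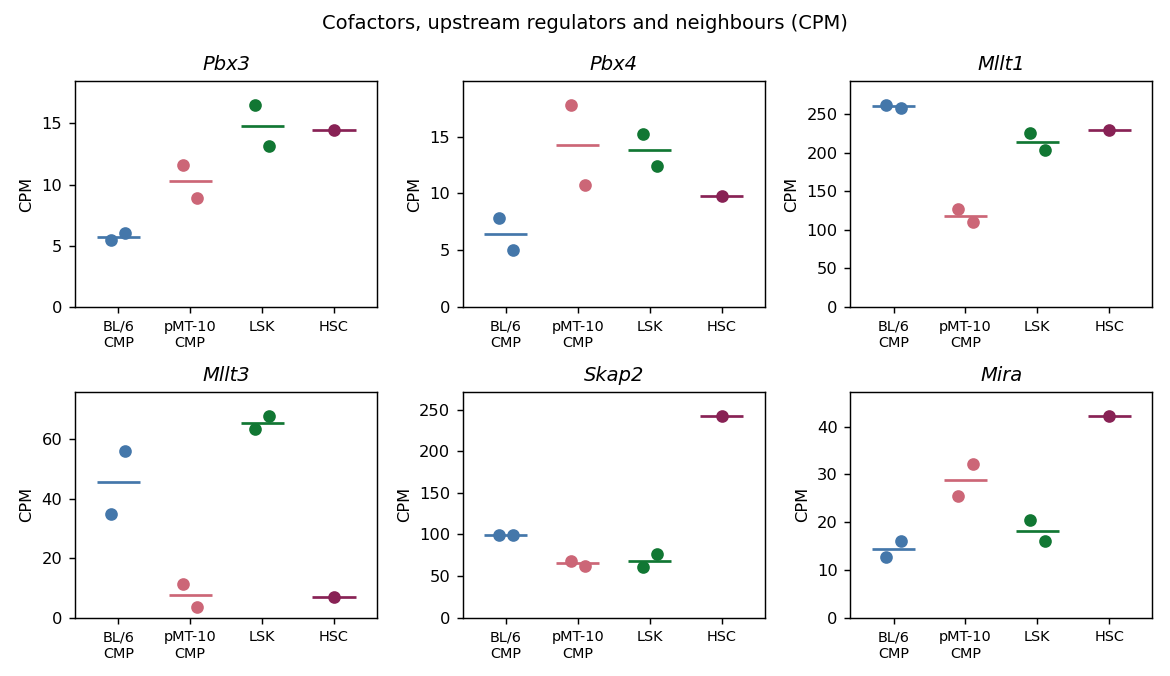
Level in CPM (vertical axes, from 0) of the TALE partners Pbx3 and Pbx4, 2 upstream regulators, the Hoxa neighbour Skap2 and the lncRNA Mira in the 4 groups. Points are libraries and bars are group means. Skap2 (242) and Mira (42.2) are highest in the HSC library, where Mllt3 (7.01) is low.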

How the data were processed

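Total RNA of sorted cells had been extracted with an RNeasy Micro kit and amplified with the mouse Ion AmpliSeq Transcriptome kit, per the labels' protocols. The raw counts per gene were deposited by the authors in 1 table per chip, and the submitters' processing notes name build mm10. The aligner, counter and strand setting were not given in the sources used here. Columns were matched to samples by table and barcode, as the labels give them.

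Testing used edgeR 4.0.16 under R 4.3.3: filterByExpr with a minimum count of 10 (11429 genes left), TMM scaling, 1 fit of all 7 libraries with 4 group means (3 residual degrees of freedom), robust quasi-likelihood F-tests and Benjamini-Hochberg adjustment over all genes tested. Every adjusted p comes from this test unless another tool is named. The scripts were tested on simulated counts. Alternatives were other scalings and filters, thinning, limma-voom (limma 3.58.1), DESeq2 1.42.0, a replicate block and leaving out each library. Same-numbered libraries did not deviate together, so the numbers were not used as pairs. All Hox genes were named, and from the other lists those of smallest p (at most 3 a comparison); further list genes were named after their values were seen. Some genes of the lists are not reported here. The members and lists were chosen with earlier results of these data known.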

Additional observations from a re-analysis of the deposited data

How the results depend on the processing

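The number of Hox genes called did not move by over 1.5 times under RLE size factors, total counts, DESeq2, a minimum count of 50, thinning to the smallest total or the replicate block, in any of the 5 comparisons. With no filter 1 gene (Hoxa9) was called in LSK cells against pMT-10 CMPs, limma-voom called 4 in HSCs against LSK cells, and a fit of the compared groups alone called 1 (Hoxb2) in HSCs against pMT-10 CMPs. Leaving out each library in turn gave 0 to 2 calls in pMT-10 against BL/6 CMPs, 0 to 3 in LSK cells against pMT-10 CMPs, 0 to 5 in HSCs against LSK cells, 1 to 4 against pMT-10 CMPs and 1 to 6 against BL/6 CMPs. These counts include Hoxa10 and Hoxb6. The cause was not tested. Hoxb2 was called under all 15 alternatives in HSCs against BL/6 CMPs (adjusted p up to 0.0261) and all 14 that gave a value against pMT-10 CMPs (up to 0.0192), but not without either LSK replicate in HSCs against LSK cells. With silence set at 5 counts 21 Hox genes were silent, and at 20 counts 24 were. The number of all genes called moved more: a fit of the compared groups alone gave 595, 3987, 1042 and 6127 in the last 4 comparisons, no filter gave 2237 in LSK cells against pMT-10 CMPs, and leaving out libraries gave 582 to 5268, 44 to 4274, 266 to 4811, 1733 to 5222 and 815 to 4828 in the order of the report.

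Signs turned only for Hox genes that were not called in the comparison concerned. Hoxb2 turned in pMT-10 against BL/6 CMPs (limma-voom -0.60), and Hoxa6 turned in LSK cells against pMT-10 CMPs (thinned 0.15, replicate block 0.089, limma-voom 0.19), in HSCs against LSK cells (thinned -0.16) and in HSCs against pMT-10 CMPs (minimum count 50 -0.0041, thinned -0.012, compared groups alone -0.033). With libraries left out, log2 fold changes in pMT-10 against BL/6 CMPs ran from -0.16 to 1.40 for Hoxb2, -0.34 to 1.45 for Hoxa6, -0.057 to 0.35 for Hoxa7, -0.26 to 0.12 for Hoxa9 and -0.52 to 1.39 for Hoxb3. In LSK cells against pMT-10 CMPs they ran from -0.67 to 1.13 for Hoxa6, -1.61 to 0.30 for Hoxb3, -0.074 to 0.33 for Hoxa7 and -0.0026 to 0.18 for Hoxb4. Hoxa6 ran from -0.052 to 0.17 in HSCs against LSK cells and -0.61 to 1.19 against pMT-10 CMPs, and Hoxa4 from -0.40 to 0.23 in HSCs against BL/6 CMPs. No fold was formed where the remaining library of a group was at 0.

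With the replicate number as a block the Hox calls were 0, 0, 2, 4 and 5 in the order of the report. These counts cover all 9 genes that passed the filter, Hoxa10 and Hoxb6 included, and counted in this way the main fit gave the same numbers. Correlations of same-numbered deviations were -0.0195, -0.0764 and -0.0192, so no common deviation was seen. Whether same-numbered libraries shared animals is not given in the labels. The single HSC library, the 2 libraries per other group and low counts of Hoxa10, Hoxb6 and Hoxb3 limit what could be detected.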
